A study of Mus musculus with 6 samples.

Results

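Peaks near transcription start sites were taken from ChIP-chip lists of Plakoglobin and β-catenin. A peak was kept when its smallest listed distance to a start site was 500 bp or less. Peaks listed under start sites on both strands that lay within 1000 bp of each other, here called divergent, were left out. The rule kept 5062 of 9671 peaks, 3658 of 6947 on the Plakoglobin arrays and 1404 of 2724 on the β-catenin arrays. They are called non-divergent start-site peaks here. A further 676 peaks were divergent and within 500 bp, and 3933 lay farther away, divergent or not. The rule used position alone and no measured value.

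The arrays held chromatin of C57BL/6J mouse keratinocytes, the main cells of the epidermis, switched to high calcium at confluency and harvested 4 days later. Chromatin was crosslinked with 2 mM DSG, which joins proteins to each other, followed by 1% formaldehyde, and was sheared to 500 bp. DNA was recovered with 5 µg per ml lysate of an antibody to Plakoglobin (3 arrays) or to β-catenin (3 arrays), labelled with Cy5 and set against total input labelled with Cy3 on a NimbleGen promoter array. Input served as background throughout, and mock-antibody or knockout arrays were not analysed here. The labels number the arrays 1 to 3 for each antibody and do not say that they came from separate cultures, so p-values measure the spread between these arrays, which may be technical.

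Plakoglobin and β-catenin are related armadillo-repeat proteins that link cadherins to the cytoskeleton at cell contacts. β-catenin also enters the nucleus, where it joins TCF/LEF factors at Wnt target genes, and Plakoglobin can bind the same factors. Neither protein binds DNA by itself, so ChIP reports its presence through partner proteins. High calcium lets keratinocytes form junctions and starts their terminal differentiation.

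The promoters below belong to genes whose start sites carried a non-divergent peak on all 3 Plakoglobin arrays, which was the most recurrent class in the data. The sequences are those of RefSeq for GRCm38.p6, from 250 bases before to 50 after the start, 5′ to 3′ on the strand of the gene. They are C1ra at chr6:124512371-124512670 (plus strand), Lgals9 at chr11:78984875-78985174 (minus strand), Zscan4c at chr7:11005495-11005794 (plus strand), Olfr46 at chr7:140601090-140601389 (plus strand), Serpina1a at chr12:103863570-103863869 (minus strand), Banf2 at chr2:144032852-144033151 (plus strand). Capitals mark matches, on either strand, to 7 motifs: the TCF/LEF core spelled CTTTGA, the GC box spelled GGGCGG, the E-box spelled CACGTG, the CCAAT motif, the TATA box spelled TATAAA, the AP-1 site spelled TGANTCA and the Ets site spelled CCGGAAGT. No match in the sequences shown overlaps another.
C1ra: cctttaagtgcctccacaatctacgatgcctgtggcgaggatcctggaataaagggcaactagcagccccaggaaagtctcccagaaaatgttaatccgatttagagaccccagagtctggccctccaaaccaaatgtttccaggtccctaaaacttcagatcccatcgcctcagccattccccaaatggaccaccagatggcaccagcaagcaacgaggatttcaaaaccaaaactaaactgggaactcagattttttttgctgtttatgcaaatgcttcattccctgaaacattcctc
Lgals9: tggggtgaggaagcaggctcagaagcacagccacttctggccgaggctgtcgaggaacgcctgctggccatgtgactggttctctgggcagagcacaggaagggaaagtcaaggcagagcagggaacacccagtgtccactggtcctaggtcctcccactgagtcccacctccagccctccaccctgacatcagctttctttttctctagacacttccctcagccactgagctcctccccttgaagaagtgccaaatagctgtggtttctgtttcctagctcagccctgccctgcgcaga
Zscan4c: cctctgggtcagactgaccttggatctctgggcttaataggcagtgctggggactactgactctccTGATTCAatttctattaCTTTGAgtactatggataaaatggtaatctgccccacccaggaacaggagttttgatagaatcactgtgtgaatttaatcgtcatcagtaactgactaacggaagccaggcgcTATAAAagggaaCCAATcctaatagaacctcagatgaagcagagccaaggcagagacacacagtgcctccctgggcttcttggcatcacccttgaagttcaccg
Olfr46: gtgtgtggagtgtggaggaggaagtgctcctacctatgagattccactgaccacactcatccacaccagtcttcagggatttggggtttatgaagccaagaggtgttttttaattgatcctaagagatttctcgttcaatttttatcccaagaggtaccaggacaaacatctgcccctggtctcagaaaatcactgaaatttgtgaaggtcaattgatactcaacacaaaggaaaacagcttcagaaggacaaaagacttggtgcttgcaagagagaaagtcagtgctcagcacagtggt
Serpina1a: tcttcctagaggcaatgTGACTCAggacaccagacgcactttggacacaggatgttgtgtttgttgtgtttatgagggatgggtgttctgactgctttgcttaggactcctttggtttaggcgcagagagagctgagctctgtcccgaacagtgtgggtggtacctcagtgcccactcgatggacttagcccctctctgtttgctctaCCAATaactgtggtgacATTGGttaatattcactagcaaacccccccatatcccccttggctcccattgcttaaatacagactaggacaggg
Banf2: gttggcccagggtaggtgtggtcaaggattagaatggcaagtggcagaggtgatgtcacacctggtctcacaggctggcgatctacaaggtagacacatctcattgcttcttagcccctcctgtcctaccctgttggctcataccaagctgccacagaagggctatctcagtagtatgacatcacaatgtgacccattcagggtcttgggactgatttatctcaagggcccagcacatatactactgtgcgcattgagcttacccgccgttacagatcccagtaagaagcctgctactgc
Zscan4c held 4 matches, 1 each to the TCF/LEF core, the CCAAT motif, the TATA box and the AP-1 site. Serpina1a held 3 matches, 2 to the CCAAT motif and 1 to the AP-1 site, and the other promoters shown held 0. Of 32851 RefSeq promoters of this length, 16.0% held the TCF/LEF core, 35.7% the GC box, 7.15% the E-box, 37.4% the CCAAT motif, 13.6% the TATA box, 7.81% the AP-1 site and 3.89% the Ets site. A match is a description of letters. No source used here names the build of the peak positions, so peaks were not placed within these sequences. The promoters shown had 44% to 58% G and C and 1 to 5 CpG, against medians of 52.7% and 7 over all promoters. Motif shares over the peaks as a whole were computed and are not compared, as that check is void: 73.9% to 81.8% of the peaks had a promoter sequence, under 80% on 5 of 6 arrays.

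The share of non-divergent start-site peaks did not separate Plakoglobin from β-catenin beyond the spread between arrays. On Plakoglobin arrays 1, 2 and 3 they numbered 1410, 1446 and 802, or 55.9%, 53.9% and 46.1% of the peaks. On β-catenin arrays 1, 2 and 3 they numbered 288, 192 and 924, or 66.1%, 58.2% and 47.2%. The groups overlapped, with Plakoglobin array 3 and β-catenin array 3 lowest. The share averaged 52.0% ± 5.15 for Plakoglobin and 57.1% ± 9.47 for β-catenin (SD, n = 3 each), a difference of -5.19 percentage points (two-sided exact permutation test, p = 0.4, adjusted over 7 tests 0.56). With 3 arrays against 3 this test cannot go below 0.1. The difference was -0.734 points without β-catenin array 1, -2.27 without Plakoglobin array 3 and -10.2 without β-catenin array 3, so its size rests on single arrays. Between arrays of the same number the difference was -10.2, -4.31 and -1.07 points for numbers 1, 2 and 3.

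Divergent peaks within 500 bp took 10.3%, 4.40% and 4.20% of the peaks on Plakoglobin arrays 1, 2 and 3, against 10.8%, 30.0% and 4.03% on β-catenin arrays 1, 2 and 3. β-catenin array 2 stood apart, and it also had the fewest peaks (330). Among peaks that were not divergent, the share within 500 bp was 63.6%, 57.3% and 50.1% on Plakoglobin arrays 1, 2 and 3, against 75.4%, 84.2% and 51.0% on β-catenin arrays 1, 2 and 3. This difference was -13.2 points (two-sided exact permutation test, p = 0.3, adjusted 0.525), and was -6.18 points without β-catenin array 2 and -22.8 points without β-catenin array 3.

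**Figure D1:**
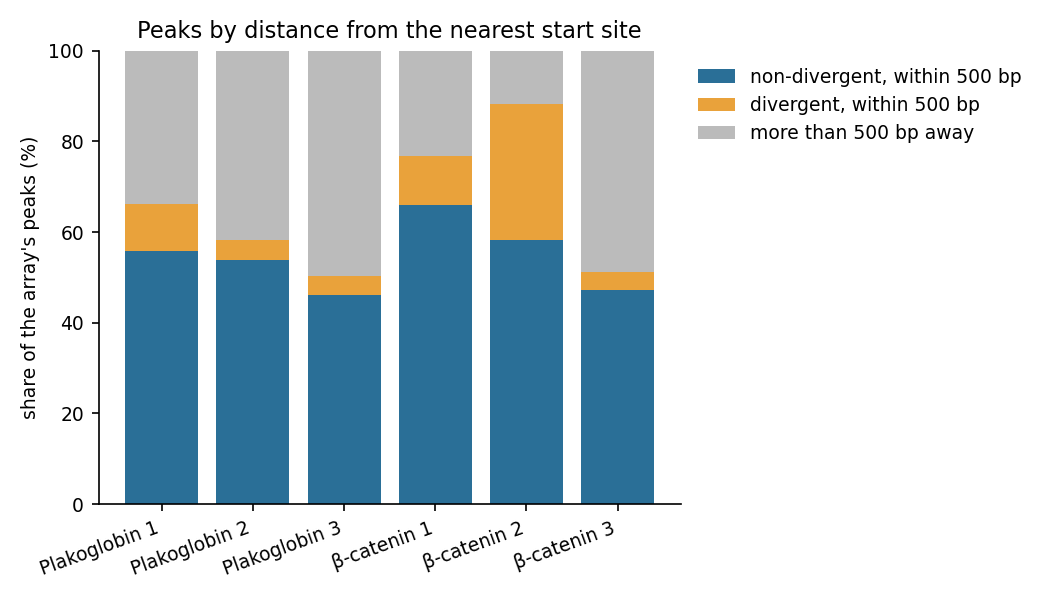
Share of each array's peaks (%, stacked bars) that were non-divergent and within 500 bp of a start site, divergent and within 500 bp, or farther away. The non-divergent share ran from 46.1% to 55.9% on Plakoglobin arrays and from 47.2% to 66.1% on β-catenin arrays, and the divergent share of 30.0% on β-catenin array 2 was the highest of the 6.

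Most of the peaks lay upstream of the start site and close to it on every array. The centre was upstream for 66.4%, 69.3% and 67.6% of the peaks on Plakoglobin arrays 1, 2 and 3, against 66.3%, 69.8% and 66.2% on β-catenin arrays 1, 2 and 3. The groups overlapped and differed by 0.305 points (two-sided exact permutation test, p = 0.8, adjusted 0.8), and the sign of this difference turned under several alternatives given in the closing section. The bin from -250 to -1 bp held 41.4% to 43.5% of the peaks on Plakoglobin arrays and 40.3% to 45.3% on β-catenin arrays. The bin from 0 to 250 bp held 30.4% to 33.2% on Plakoglobin arrays and 29.2% to 33.0% on β-catenin arrays. Beyond 250 bp downstream lay only 6, 5 and 3 peaks on Plakoglobin arrays 1, 2 and 3 (0.346% to 0.426%). On β-catenin arrays 1, 2 and 3 there were 2, 2 and 7 (0.694% to 1.04%), too few to compare. These shares leave out divergent peaks. On Plakoglobin array 1 the 100 bp bins starting at 300 and 400 bp held 2 and 2 non-divergent peaks, against 26 and 13 of all peaks. On β-catenin array 3 these bins held 3 and 3, against 6 and 15. The 1st percentile of the distance over all peaks was between -1252 and -1033 bp on the 6 arrays. The array design itself was not used here, so how far probes reach on either side was not tested.

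At the 500 bp limit the peaks just inside and just outside were alike in number. On Plakoglobin arrays 1, 2 and 3, 62, 58 and 37 peaks lay in the last 50 bp inside the limit and 61, 75 and 41 lay within the next 50 bp. On β-catenin arrays 1, 2 and 3 these numbers were 13, 4 and 43 inside, and 13, 5 and 34 outside. The nearest pair on Plakoglobin array 1 was Atp5g1 at -500 bp (score 3.33) and Fn3k at -502 bp (score 3.08). The nearest pair on β-catenin array 3 was Tjap1 at -500 bp (score 4.53) and Itgb6 at -507 bp (score 4.24).

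**Figure D2:**
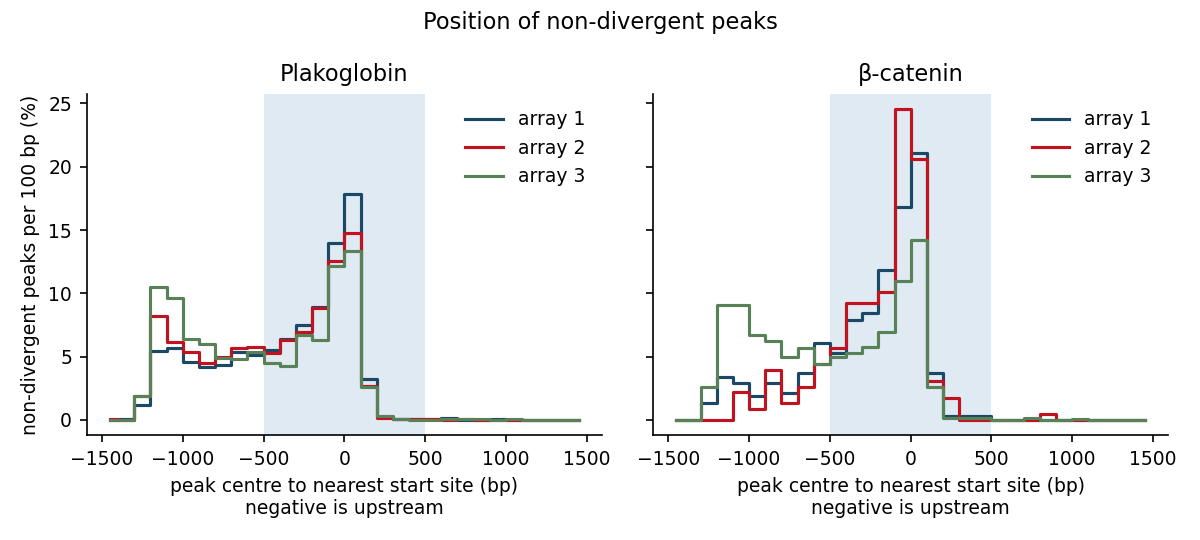
Position of non-divergent peaks: the x axis is the distance of the peak centre from the nearest start site in bp (negative is upstream), the y axis is the share of the array's non-divergent peaks per 100 bp (%), and each line is an array. Shading marks the 500 bp limit. On all 6 arrays the highest point lies next to the start site, and few non-divergent peaks lie beyond 250 bp downstream.

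The authors' peak score, of unstated scale, did not separate the antibodies. The median score of the non-divergent start-site peaks was 2.40, 3.03 and 2.56 on Plakoglobin arrays 1, 2 and 3, against 2.51, 2.16 and 2.59 on β-catenin arrays 1, 2 and 3. The highest and the lowest value came from the 2 arrays numbered 2, and the other 4 lay together. The means were 2.66 ± 0.328 for Plakoglobin and 2.42 ± 0.228 for β-catenin (SD, n = 3 each), a difference of 0.242 (two-sided exact permutation test, p = 0.5, adjusted 0.583). It was 0.0583 without Plakoglobin array 2, 0.373 without Plakoglobin array 1, 0.113 without β-catenin array 2 and 1.34 with the 300 highest scores per array. That last cut keeps most of the 330 peaks of β-catenin array 2 but few of the 2684 of Plakoglobin array 2. It raises the medians of longer lists by its own working, so nothing is read from 1.34. Between arrays of the same number the difference was -0.110, 0.870 and -0.0327 for numbers 1, 2 and 3.

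Within an array, peaks near a start site had a slightly lower median score than peaks more than 500 bp away. The median score of the distant peaks was 2.76, 3.04 and 2.75 on Plakoglobin arrays 1, 2 and 3, and 2.62, 2.20 and 2.70 on β-catenin arrays 1, 2 and 3. The distant peaks, here and below, include divergent ones, which the near peaks leave out. The near peaks were lower on 6 of 6 arrays, by a mean difference of -0.139. A two-sided exact sign-flip permutation test gave p = 0.03125, the smallest that 6 arrays allow, and it did not pass after adjustment over 7 tests (0.109). This test treats the 6 arrays as independent. With the arrays paired by number, the two-sided exact sign-flip permutation test gave p = 0.25, the smallest that 3 pairs allow. The difference was 0.0123 when only peaks with a q-value at or under 0.05 were used. On β-catenin array 2 this cut keeps 4.69% of 192 near and 5.13% of 39 distant peaks. Peaks within 250 bp had a lower median than those 251 to 500 bp away on 5 arrays (2.31 against 2.60 on Plakoglobin array 1, 2.56 against 2.77 on β-catenin array 3), and both medians were 2.16 on β-catenin array 2. The peaks 251 to 500 bp away did not score below distant non-divergent ones on every array. Their median exceeded that at 501 to 1000 bp on Plakoglobin array 2 (3.21 against 3.05) and β-catenin arrays 1 (2.79 against 2.66) and 3 (2.77 against 2.69). It was lower on Plakoglobin arrays 1 (2.60 against 2.80) and 3 (2.75 against 2.83) and on β-catenin array 2 (2.16 against 2.19).

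Near peaks were also narrower on most arrays. Their median width was 300, 270 and 310 bp on Plakoglobin arrays 1, 2 and 3, and 290, 370 and 300 bp on β-catenin arrays 1, 2 and 3. Distant peaks had 330, 290 and 310 bp on Plakoglobin arrays 1, 2 and 3, and 330, 440 and 310 bp on β-catenin arrays 1, 2 and 3. The mean difference was -28.3 bp (two-sided exact sign-flip permutation test, p = 0.0625, adjusted 0.146). The share of near peaks with a q-value at or under 0.05 was 68.4%, 63.6% and 79.8% on Plakoglobin arrays 1, 2 and 3, and 87.5%, 4.69% and 74.9% on β-catenin arrays 1, 2 and 3. β-catenin array 2 held almost none of such peaks. Among distant peaks, Plakoglobin arrays 1, 2 and 3 had 72.6%, 65.1% and 81.6%. β-catenin arrays 1, 2 and 3 had 88.1%, 5.13% and 75.9%. The near share was lower on 6 of 6 arrays, by a mean of -1.60 points (two-sided exact sign-flip permutation test, p = 0.03125, adjusted 0.109). The smallest p needs the same sign on all 6 arrays, and with only 39 distant peaks the sign of β-catenin array 2 is uncertain. Without that array the mean was -1.83 points. With the arrays paired by number, the two-sided exact sign-flip permutation test over 3 pairs gave p = 0.25 for the width and for this share.

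**Figure D3:**
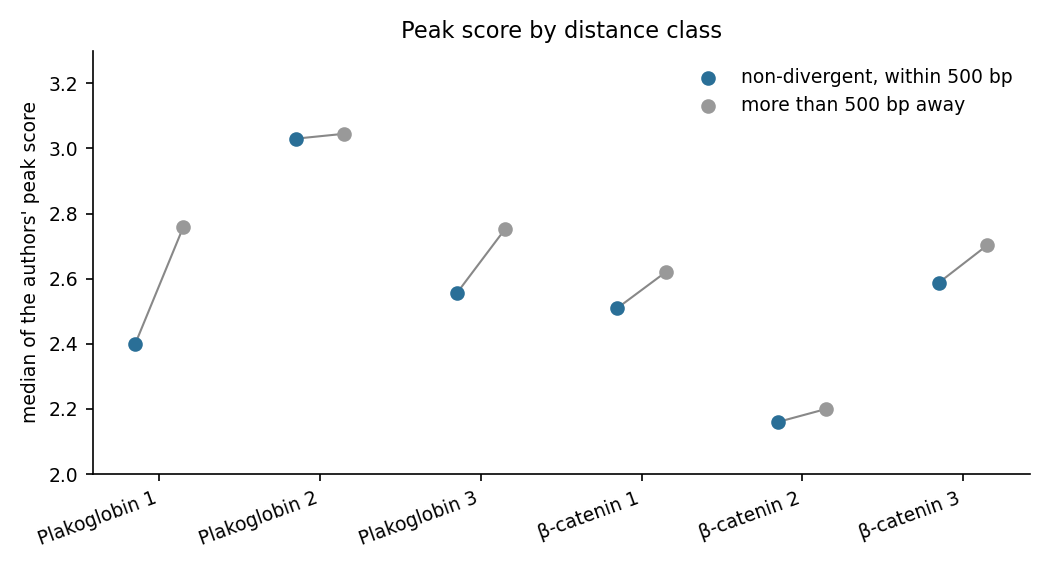
Median of the authors' peak score (y axis, which starts at 2) for non-divergent peaks within 500 bp of a start site and for peaks farther away, joined by a line for each array. The near peaks sit below the distant ones on all 6 arrays, with the widest gap on Plakoglobin array 1 (2.40 against 2.76).

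Few start sites were marked on more than 1 array of an antibody. Over the 6 arrays, 9496 start sites had a peak of this kind. With Plakoglobin 605 start sites, in 265 separate regions, had one on at least 2 of 3 arrays, and 79, in 30 regions, on 3 of 3. With β-catenin 95 start sites, in 45 regions, had one on at least 2 of 3 arrays, and 0 on 3 of 3. Among the 22505 accessions with a ratio, 15.0% had such a peak on at least 1 Plakoglobin array and 6.19% on at least 1 β-catenin array. On at least 2 arrays the shares were 1.17% for Plakoglobin and 0.196% for β-catenin. The lists differ in length between arrays. With the 300 highest-scoring peaks of each array, which changes both length and stringency, 8 start sites recurred with Plakoglobin and 18 with β-catenin. Leaving out 1 Plakoglobin array left 237, 206 and 320 recurrent start sites (without array 1, 2 and 3), and leaving out 1 β-catenin array left 29, 55 and 11.

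Start sites recurrent with both antibodies numbered 21, in 14 regions, which is 3.47% of the Plakoglobin list and 22.1% of the β-catenin list. None of them remained without β-catenin array 1 or without β-catenin array 3. Accessions with more than 1 promoter sequence on the array made up 2.60% of all accessions with a ratio. They made up 12.3% of those at start sites recurrent on at least 2 Plakoglobin arrays, 31.8% of those on 3 Plakoglobin arrays and 9.09% of those on at least 2 β-catenin arrays. Probes for such near-identical copies can share DNA, so a peak at one copy cannot be told apart from a peak at another.

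Promoters that carried a peak on 1 array mostly showed a ratio near the array's median on the other arrays. The log2 ratio used here is the deposited mean over a promoter's probes, ChIP over input, minus the array's median. On the array that called the peak, the median ratio was between 1.16 and 1.61. On the other arrays the medians ran from -0.147 to 0.447. The median of these values was -0.025 between arrays of the same antibody, 0.003 between arrays of the same number and -0.0135 between arrays that shared neither. Promoters called on β-catenin array 2 had the highest value elsewhere, 0.447 on Plakoglobin array 2, with 82.1% above 0. Another array's peak overlapped 6.05% of these peaks at the median for the same antibody, 8.67% for the same number and 5.47% for neither. With a reciprocal overlap of at least 50%, an alternative chosen after seeing the data, these were 3.01%, 5.36% and 2.08%.

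**Figure D4:**
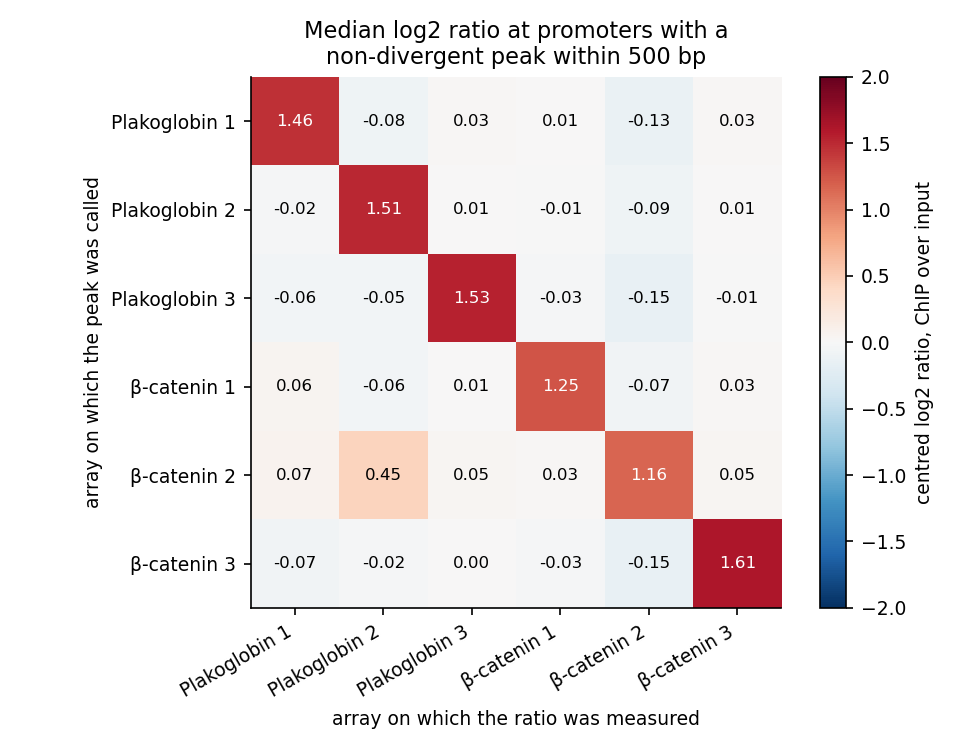
Median centred log2 ratio of ChIP over input (colour and printed value) at promoters with a non-divergent peak within 500 bp, by the array that called the peak (rows) and the array on which the ratio was measured (columns). High values lie on the diagonal, between 1.16 and 1.61, and elsewhere the highest is 0.447.

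Across all 26200 promoter sequences no ratio passed the test. limma called 0.0% of promoters between Plakoglobin and β-catenin (lowest adjusted p 0.9999), with 149 higher and 42 lower at an unadjusted p under 0.05. It called 0.0% for Plakoglobin over input (lowest adjusted p 0.696), with 429 higher and 561 lower unadjusted, and 0.0% for β-catenin over input (lowest adjusted p 0.894), with 68 higher and 392 lower unadjusted. The balance of these unadjusted counts depended on the setting. Without centring it was 3356 higher and 1 lower for Plakoglobin over input and 1634 higher and 18 lower for β-catenin over input. With the replicate block Plakoglobin over input had 268 higher and 2834 lower. Without β-catenin array 1, Plakoglobin minus β-catenin had 76 higher and 120 lower. No direction is read from them, and the values of single genes below are descriptions. At 2.67% of accessions each Plakoglobin array exceeded each β-catenin array, and at 2.53% each was below. Of the 263 accessions with a peak on at least 2 Plakoglobin arrays, 68 lay above, a number that the choice by Plakoglobin peaks itself raises.

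The genes with a peak on 3 of 3 Plakoglobin arrays were of mixed function. Of the 79 start sites, 38 had an accession with a ratio, and the 10 genes with the highest mean Plakoglobin ratio were taken. C1ra, a complement protease on chromosome 6, had log2 ratios of 2.20, 0.60 and 4.84 on Plakoglobin arrays 1, 2 and 3, against -0.07, -0.12 and 0.06 on β-catenin arrays 1, 2 and 3. All Plakoglobin values lay above all β-catenin values, yet they spread widely (mean 2.54 ± 2.14 for Plakoglobin and -0.04 ± 0.09 for β-catenin, SD, n = 3 each, limma adjusted p = 0.9999). Its peaks lay at -364, -364 and -184 bp with scores of 4.00, 2.04 and 5.09.

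Pecam1, an adhesion molecule of endothelial cells and leukocytes on chromosome 11, had ratios of 1.82, 2.08 and 3.70 on Plakoglobin arrays 1, 2 and 3, against -0.04, -0.91 and 0.35 on β-catenin arrays 1, 2 and 3. Its groups did not overlap. Zdhhc17, a palmitoyltransferase, had 3.92, 0.32 and 2.88 with Plakoglobin, against 0.12, -0.26 and 0.05 with β-catenin, and array 2 was the low one. Lgals9, which encodes galectin-9, had 2.52, 0.49 and 3.50 with Plakoglobin, against 0.21, 0.32 and 0.36 with β-catenin, so its lowest Plakoglobin value was close to β-catenin.

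Zscan4c, a zinc finger gene of the early embryo whose promoter is shown above, was the most even of the 10. Its ratios were 1.74, 2.28 and 2.33 on Plakoglobin arrays 1, 2 and 3, against -0.30, -0.68 and -0.57 on β-catenin arrays 1, 2 and 3. Its peaks were listed on an unplaced contig at 30, -54 and 30 bp, and the gene belongs to a family of close copies. Banf2, a relative of the chromatin protein Banf1, had 1.64, 1.36 and 2.23 with Plakoglobin, against -0.01, -0.19 and -0.08 with β-catenin, and was similarly even. Serpina1a, a protease inhibitor of the α1-antitrypsin family, had 0.47, 1.87 and 3.82 with Plakoglobin, against -0.05, -1.55 and -0.24 with β-catenin.

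Olfr46 is an olfactory receptor gene of chromosome 7, but the start site with its peaks was listed on an unplaced contig. Its ratios were 4.27, 0.72 and 1.20 on Plakoglobin arrays 1, 2 and 3, against -0.14, -0.28 and 1.69 on β-catenin arrays 1, 2 and 3. Here the groups overlapped, and β-catenin array 3 also called a peak. 2210418O10Rik and Gm6710, both on chromosome 2, overlapped as well and had peaks on β-catenin arrays 1 and 3. 2210418O10Rik had 3.79, 2.29 and 0.81 with Plakoglobin, against 3.64, -1.81 and 1.61 with β-catenin.

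With β-catenin no start site had a peak on all 3 arrays, so the 5 genes with the highest mean ratio among those on 2 arrays were taken. Rdh18-ps, a retinol dehydrogenase pseudogene, had ratios of -0.04, -0.54 and -0.23 on Plakoglobin arrays 1, 2 and 3, against 4.11, -0.84 and 3.12 on β-catenin arrays 1, 2 and 3. Ccr3, the eotaxin receptor, had -0.17, -0.02 and -0.36 with Plakoglobin, against 0.01, 1.71 and 4.44 with β-catenin. Rnase6, a secreted ribonuclease, had 0.01, 0.18 and -0.05 with Plakoglobin, against 3.62, 1.11 and 0.10 with β-catenin. In each of these, 1 β-catenin array stayed near or below 0.

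Aadacl4fm1 and Slc7a12, an amino acid transporter, owed their mean to β-catenin array 3. Aadacl4fm1 had 0.06, -0.10 and -0.22 on Plakoglobin arrays 1, 2 and 3, against 0.20, 0.17 and 5.65 on β-catenin arrays 1, 2 and 3. Slc7a12 had -0.24, -0.03 and -0.31 with Plakoglobin, against 0.25, -0.03 and 4.51 with β-catenin. The peaks on β-catenin array 1 had scores of 0.58 for Aadacl4fm1 and 0.68 for Slc7a12, well under that array's median of 2.51.

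**Figure D5:**
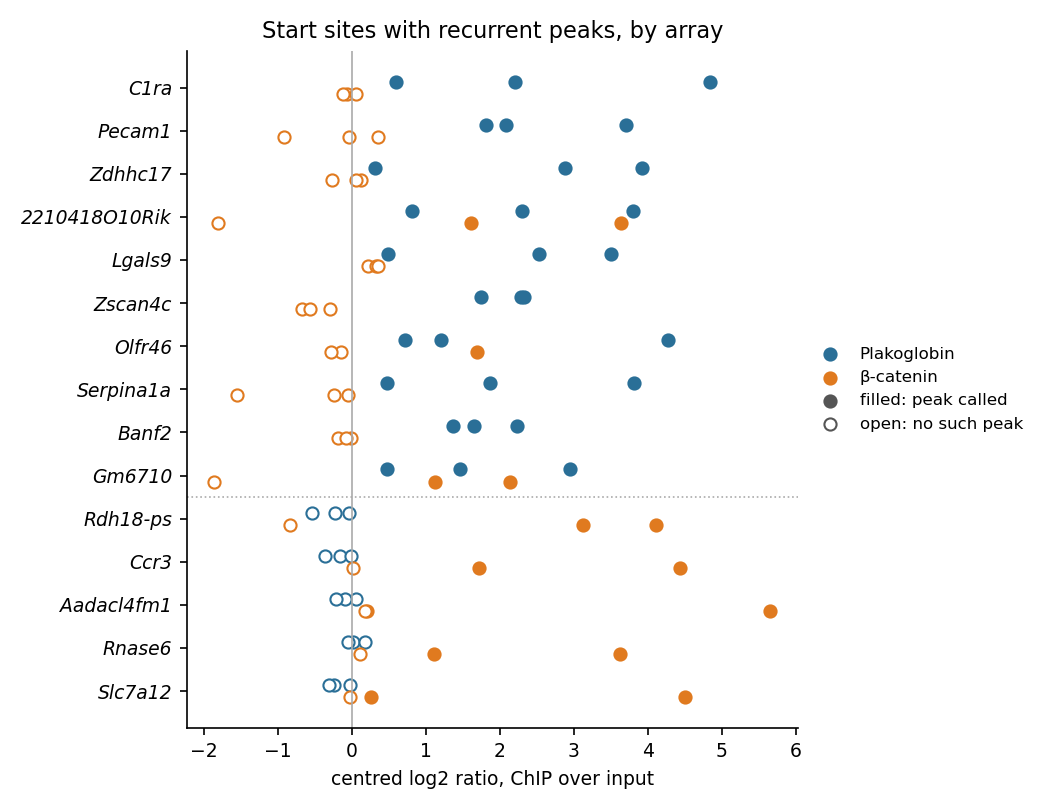
Centred log2 ratio of ChIP over input (x axis) on each of the 6 arrays for the 10 genes with a peak on 3 Plakoglobin arrays (above the dotted line) and the 5 with a peak on 2 β-catenin arrays (below it). Filled points mark arrays with a called peak. Zscan4c and Banf2 show the tightest Plakoglobin values, and Aadacl4fm1 rests on a single β-catenin value of 5.65.

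Of the 21 start sites recurrent with both antibodies, 14 had an accession with a ratio, and these were named as 2210418O10Rik, LOC627905, 0610010B08Rik, Gm6710 and Klra8. Of the named genes all but Klra8 were listed on chromosome 2, and 0610010B08Rik had 10 promoter sequences on the array. Klra8, a natural killer cell receptor, had 0.46, -0.29 and 0.89 on Plakoglobin arrays 1, 2 and 3, against 0.27, -0.31 and 4.38 on β-catenin arrays 1, 2 and 3. The 2 highest-scoring peaks of an array belonged to other genes on each array. They were Zfp955a (score 5.87) and Tefm (5.66) on Plakoglobin array 1, an unnamed accession (5.97) and Cpsf3 (5.70) on array 2, and Fam120b (5.65) and Acta2 (5.56) on array 3. On β-catenin array 1 they were Pigt (4.34) and Gm5861 (3.87), on array 2 Prdm8 (3.68) and Podxl2 (3.57), and on array 3 Adgrf2 (5.82) and Gml2 (5.81).

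Gene functions were compared as counts of genes with such a peak on at least 1 array, beside 16.1% of 15617 named genes for Plakoglobin and 6.56% for β-catenin. The peak lists of the antibodies differ in length, and no list was tested. Among Wnt pathway components, 6 of 41 had a peak with Plakoglobin and 1 of 41 with β-catenin (14.6% and 2.44%). Wls, which carries Wnt proteins to the cell surface, had a ratio of 3.93 on Plakoglobin array 2 and between -0.14 and 0.41 on the other 5 arrays. Wnt target genes had 3 of 23 with Plakoglobin and 1 of 23 with β-catenin (13.0% and 4.35%), and Wnt ligands 2 of 18 and 0 of 18 (11.1% and 0%). These shares lay under the background on small numbers, so no depletion is read from them. For distant peaks, Wnt components, targets and ligands had 17.1%, 21.7% and 22.2% with Plakoglobin, against 13.9% of all named genes. With β-catenin they had 2.44%, 0% and 0%, against 5.85%.

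Junction genes had higher shares than the background with both antibodies, on small numbers, so no enrichment is read from them. Desmosome genes had 4 of 15 with Plakoglobin and 2 of 15 with β-catenin, and adherens and tight junction genes 6 of 21 and 2 of 21. Cdh1, which encodes E-cadherin, had a ratio of 2.43 on Plakoglobin array 2 (score 3.26, 4 bp upstream) and between 0.14 and 0.68 on the other arrays. Cldn7, a claudin, had 2.52 on Plakoglobin array 2. Vcl, which encodes vinculin, had 2.25 on β-catenin array 1 and at most 0.25 elsewhere. None of the counted genes of these lists had a peak on 2 arrays of an antibody. Ratios differed between the lists. Their median was -0.024 (Plakoglobin) and -0.021 (β-catenin) in the desmosome list, under the 0.0797 and 0.039 of all named genes. In the adherens and tight junction list it was higher than in all named genes, at 0.145 and 0.095. Distant Plakoglobin peaks marked 6.67% of the desmosome list and 14.3% of the other, beside 13.9% of all named genes.

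Terminal differentiation genes had 5 of 22 with Plakoglobin and 3 of 22 with β-catenin. Casp14, a protease of the cornified layer, had a peak on 2 Plakoglobin arrays, with ratios of -0.01, 3.83 and 1.78 on Plakoglobin arrays 1, 2 and 3, against -0.04, -0.15 and 0.69 on β-catenin arrays 1, 2 and 3. Abca12, a lipid transporter of the skin barrier, also had one on Plakoglobin arrays 2 and 3, and its ratios there were 0.38 and 1.31. Krt10, a keratin of suprabasal cells, had a peak on β-catenin array 1, 19 bp from the start site with a score of 3.43. Its ratios were -0.09, -0.15 and -0.26 on Plakoglobin arrays 1, 2 and 3, against 1.74, 0.03 and 0.08 on β-catenin arrays 1, 2 and 3. Abca12 and Krt10 took their names from the peak lists and stand outside the counts of 22.

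RNA polymerase and Mediator genes had 13 of 46 with Plakoglobin and 2 of 46 with β-catenin (28.3% and 4.35%), and proteasome subunit genes 8 of 28 and 3 of 28. Med10, a Mediator subunit, had a peak on 3 Plakoglobin arrays, with ratios of 1.31, 0.24 and 0.61 there, against 0.31, 0.02 and -0.19 on β-catenin arrays 1, 2 and 3. The groups overlapped, and its scores of 1.78, 1.25 and 0.949 lay under the arrays' medians of 2.40, 3.03 and 2.56. Med1, of the same list, had a peak on 1 Plakoglobin array and 2 β-catenin arrays. Cytosolic ribosomal protein genes had 12 of 61 and 4 of 61, and splicing factor genes 9 of 48 and 3 of 48. Other lists of this kind lay near or under the Plakoglobin background of 16.1% on small numbers, so no depletion is read from them. Mitochondrial ribosomal protein genes had 8 of 65 and 1 of 65 (12.3% and 1.54%), and respiratory complex I genes 3 of 24 and 0 of 24 (12.5% and 0%). Ubiquitin conjugation and removal genes had 10 of 70 and 4 of 70 (14.3% and 5.71%), and translation initiation factor genes 6 of 40 and 2 of 40 (15.0% and 5.00%).

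Histone and protocadherin genes went the other way in the number with a peak on at least 1 array. On at least 2 arrays, 2 of the 60 histone genes had one with Plakoglobin and 0 with β-catenin. H4c12 had one on 3 Plakoglobin arrays, with ratios of 2.17, 1.92 and 0.80 there. Its ratios were 0.055, -0.06 and -0.08 on β-catenin arrays 1, 2 and 3. Histone genes had 4 of 60 with Plakoglobin and 6 of 60 with β-catenin within 500 bp, whereas 28 and 11 of the 60 had a peak farther away. Protocadherin genes had 4 of 30 with Plakoglobin and 7 of 30 with β-catenin. Pcdhb15 had ratios of 2.17 on Plakoglobin array 3 and 2.89 on β-catenin array 3.

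Large gene families were counted in the same way. Olfactory receptor genes had 159 of 940 with Plakoglobin and 77 of 940 with β-catenin (16.9% and 8.19%), and vomeronasal receptor genes 21 of 141 and 14 of 141. These sensory receptor genes, mainly active in the nose, had shares close to the background with Plakoglobin and somewhat above it with β-catenin. Cytochrome P450 genes had 15 of 68 and 7 of 68, and zinc finger protein genes 49 of 242 and 22 of 242, all above the background. Olfr155 had a peak on Plakoglobin arrays 1 and 3, with ratios of 2.90, -0.18 and 4.46 on Plakoglobin arrays 1, 2 and 3.

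Of 12 genes fixed by name, 3 had a peak of this kind with either antibody. As background, 12352 of the 15617 genes named in the ratio table had one with neither. Jup, which encodes Plakoglobin, had one on Plakoglobin array 3, 54 bp from the start site with a score of 4.03. Hexim1, an inhibitor of the P-TEFb elongation factor, had one on Plakoglobin array 1 (-272 bp, score 3.21) and on β-catenin array 3 (-475 bp, score 4.20). The third was Krt10, given above, which is named only in the peak lists and so stands outside that background. Ctnnb1, Myc, Ccnd1, Axin2, Trp63, Krt5, Krt14, Ivl and Cdkn1a had none. An accession of Ccnd1 that the lists also place on the mitochondrial chromosome had a peak there, which was not counted.

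Markers of the labelled cell type were looked up in the same way, although a peak says nothing of expression. The background shares stay 16.1% for Plakoglobin and 6.56% for β-catenin. All 5 basal keratinocyte markers were named in the ratio table, and 0 had such a peak with Plakoglobin and 1 with β-catenin (Itgb4). Of 5 suprabasal markers only 2 were named there, and 1 of them, Flg, had a peak with each antibody. Krt10 and Lor, named only in the peak lists, had one with β-catenin and stand outside that count. Vim, 1 of 5 fibroblast markers measured, and Dct, 1 of 4 melanocyte markers measured, had one with Plakoglobin. None of the 4 immune cell markers measured had one, and Ptprc, named only in the peak lists, had one with each antibody. A longer list of 9 immune cell genes had 2 with each antibody. The identity of the cells therefore rests on the labels.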

How the data were processed

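Peak lists and promoter ratios of 6 two-channel arrays were used. The log2 ratio of each promoter sequence is the mean of its probes, ChIP over input, with a standard deviation over probes (a signal never below 0), deposited by the authors per the file headers. Each deposited peak has the authors' score and a q-value (FDR) from NimbleGen's peak algorithm, called on each array by itself, per the file headers. Probe normalization and genome build are not given in the sources used here.

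Ratios were centred on each array's median (0.148 to 0.447) and fitted with limma 3.58.1 (R 4.3.3; lmFit and eBayes with trend, Benjamini-Hochberg 0.05 over 26200 sequences). Other values were computed once per array and compared with exact permutation tests, adjusted over 7 tests; the smallest p is 0.1 for 3 against 3, 0.03125 for 6 sign flips and 0.25 for 3 pairs. Scripts were tested on simulated data. Same-numbered arrays deviated together (correlations 0.203, 0.235 and 0.218), so the numbers were taken as pairing the arrays.

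A gene was counted when a peak row within 500 bp carried it by accession, gene ID or name. Only 4409 of the 9306 accessions at these peaks are in the ratio table, so matching on that table's accessions alone misses genes such as Krt10. Shares use the 15617 genes named in the ratio table. Genes named only in the peak lists (672 for Plakoglobin, 268 for β-catenin) stand outside them, since a name there requires a peak. Rows on another chromosome than the gene in RefSeq (168 of 10796) were left out, except on unplaced contigs. This matching was corrected after a first version of the counts had been seen.

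Named genes were those with peaks on 3 of 3 arrays of an antibody (filled to 5 from 2 of 3), on at least 2 arrays of both, the 2 highest scores per array, up to 3 per list, and 12 fixed genes. Members and lists were chosen with earlier results of these data known.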

Additional observations from a re-analysis of the deposited data

How the results depend on the processing

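Motif shares over the peaks were computed but are not compared, and base composition was not run, because too few peaks had a sequence. Counts of promoters called by limma were 0 under every setting tried (other centring and scaling, no trend, the median over probes, the replicate block, and each array left out). With the replicate block, which the pairing by number allows, the share differed by -5.19 points (p = 0.25, exact sign-flip permutation over 3 pairs), and no call changed; 0.25 is the smallest p that 3 pairs give.

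The difference in upstream share (0.305 points) turned to -0.358 with a 250 bp limit, -4.64 at a q-value at or under 0.05, -1.36 at 0.1 and -0.491 with the 300 highest scores per array, and ran from -0.466 to 1.48 with 1 array left out. The cut at 0.05 keeps only 4.69% of the 192 near peaks of β-catenin array 2. With a 1000 bp limit, 3 differences turned: the share of peaks (1.91 points), the width (45 bp) and the share with a q-value at or under 0.05 (1.35 points). The last was 0.119 with the 300 highest scores per array. The score difference between near and distant peaks was 0.0123 at a q-value at or under 0.05. The causes were not tested.

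Recurrent start sites (605 with Plakoglobin, 95 with β-catenin, 21 with both) numbered 380, 50 and 4 with a 250 bp limit, 1107 and 155 for the single antibodies with 1000 bp, and 290, 33 and 8 at a q-value at or under 0.05. At 0.1 they were 54 with β-catenin and 12 with both. With the 300 highest scores per array they were 8, 18 and 0. With 1 array left out they ranged from 206 to 605 with Plakoglobin, from 11 to 95 with β-catenin and from 0 to 21 with both, as fewer arrays were searched.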

Other observations

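Peaks on unplaced or random contigs were more frequent among the non-divergent start-site peaks than among distant ones on every array, a pattern noticed after the data were seen and not tested. They made up 3.90%, 5.26% and 6.11% of the near peaks on Plakoglobin arrays 1, 2 and 3, against 2.58%, 1.79% and 2.08% of the distant ones. On β-catenin arrays 1, 2 and 3 they made up 3.82%, 1.04% and 6.71% of the near peaks, against 2.97%, 0% and 1.68% of the distant ones. Without random contigs and the mitochondrial chromosome, an alternative chosen after seeing the data, the share of near peaks differed by -5.39 points between Plakoglobin and β-catenin.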
